A study of Homo sapiens with 27 samples.

Results

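MYC and 43 factors of ribosome production were followed at the mRNA level in prostate cancer cells in which CPSF1 had been knocked down. These 44 genes were taken by symbol, from a list of names, out of the 20268 protein-coding symbols counted. They comprise MYC itself, 8 nucleolar proteins, 4 box C/D and 4 box H/ACA snoRNP proteins, 7 proteins of RNA polymerase I transcription, 12 factors of the small subunit processome and 8 factors of large subunit assembly. All 44 passed the expression filter, above 2 CPM (counts scaled to the library total) in each of 9 libraries, in every line.

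Poly(A) RNA had been sequenced from 3 prostate cancer cell lines, namely hormone-sensitive LNCaP, its hormone-insensitive derivative LNCaP95, and hormone-insensitive 22Rv1, each infected with a lentivirus carrying a control shRNA (CTRL sh) or a hairpin that targets CPSF1, either CPSF1 sh1 or CPSF1 sh2. CPSF1 is a subunit of the complex that recognises the poly(A) signal and cleaves the 3′ end of pre-mRNA, and the study asked what its loss does to prostate cancer cells. All groups carried a stably integrated vector and had been selected in puromycin, at 2 µg/mL for LNCaP and 22Rv1, and 500000 cells were then plated in each well for 72 h. LNCaP and 22Rv1 cells grew in RPMI with serum and LNCaP95 cells in the same medium without phenol red. The sources used here name no puromycin dose for LNCaP95 cells. In comparisons with LNCaP95, line, medium and any difference in puromycin dose therefore cannot be told apart. Each of the 9 groups had 3 libraries, described as biological replicates. Whether these came from separate infections is not given in the sources used here, so the p-values measure the spread between these samples.

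MYC is a transcription factor that binds DNA as a dimer with MAX, classically at the E-box CACGTG, and genes for ribosome production are among its best known targets. RNA polymerase I transcribes the ribosomal RNA precursor in the nucleolus, where box C/D and box H/ACA particles guide its methylation and pseudouridylation. The small subunit processome and the large subunit assembly factors then fold, cut and package the precursor into the 2 ribosomal subunits.

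The letters CACGTG, which read the same on both strands, were searched in RefSeq promoter windows of GRCh38.p14, 300 bases long from 250 before to 50 after each annotated start. Windows were found for 36 of the 44 members, with no entry for MYC, NOLC1, NOP58, POLR1E, RRP12, DDX18, BOP1 and RRS1. Of these 36, 16 (44.4%) held the E-box in at least 1 window, against 13.3% of 8020 genes with a window that were tested in all 27 libraries and 8.78% of all 27305 genes with a window. The windows of NOP56, UBTF, POLR1B, TAF1D and EMG1 did not hold these letters. The members described library by library below that held them are shown first, followed by UTP20 and the pair of E-boxes of NOP10, each with up to 12 flanking bases and the E-box in capitals.
RRP9, chr3:51941892-51941921, minus strand: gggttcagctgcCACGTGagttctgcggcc
GNL3, chr3:52686026-52686055, plus strand: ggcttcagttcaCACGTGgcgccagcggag
RCL1, chr9:4792936-4792965, plus strand: cctgttccaaacCACGTGgacgcgtctggg
UTP20, chr12:101280083-101280112, plus strand: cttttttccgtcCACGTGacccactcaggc
NOP10, distal, chr15:34343289-34343318, minus strand: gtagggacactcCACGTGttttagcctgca
NOP10, proximal, chr15:34343130-34343159, minus strand: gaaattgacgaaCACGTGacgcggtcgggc

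Library totals ranged from 8515624 to 15904518 counts, with a median of 11058723, and mitochondrial genes took 1.49 to 2.30% of them. CPSF1 mRNA fell on the log2 scale by 0.65 (LNCaP), 0.89 (LNCaP95) and 0.50 (22Rv1), without overlap of the groups. All 9 luminal prostate markers exceeded 2 CPM in every library, and they summed to between 5542 and 5645 CPM with CTRL sh and between 4402 and 4710 CPM with CPSF1 sh in LNCaP cells, and to between 6552 and 6761 and between 4615 and 4864 CPM in LNCaP95 cells. By contrast, the 3 basal markers summed to at most 6.29 CPM in any library, with TP63 at 0 in LNCaP. The 3 immune markers summed to between 2.98 and 3.601 CPM with CTRL sh and between 10.0 and 17.98 CPM with CPSF1 sh in LNCaP cells, and to between 6.47 and 9.48 and between 16.3 and 34.9 CPM in LNCaP95 cells, and of these CD68 alone passed the filter. The luminal sum of 22Rv1 cells lay between 3060.3 and 3085 CPM with CTRL sh and between 2909 and 3213 CPM with CPSF1 sh, and the immune sum between 0.952 and 1.65 and between 1.84 and 7.21 CPM. The 4 stromal markers, with DCN at 0 in LNCaP and LNCaP95, summed with CTRL sh to between 26.1 and 31.2 CPM (LNCaP), 56.2 and 73.1 CPM (LNCaP95) and 12.6 and 15.87 CPM (22Rv1). With CPSF1 sh they summed to between 17.8 and 20.7, 44.6 and 59.1, and 12.8 and 17.1 CPM, and COL1A1 fell at log2 fold changes of -0.71 in LNCaP and -0.40 in LNCaP95 cells. The endothelial marker VWF lay between 22.3 and 28.0 CPM with CTRL sh and between 9.30 and 12.7 CPM with CPSF1 sh in LNCaP cells, and 3 neuroendocrine markers summed to at most 6.13 CPM in any LNCaP or LNCaP95 library. In 22Rv1 cells these 3 summed to between 78.8 and 86.1 CPM with CTRL sh and between 61.9 and 74.4 CPM with CPSF1 sh, and SYP fell at -0.29. The luminal sums hide single markers that moved in opposite directions on the log2 scale. For LNCaP, 2 of the 9 rose, KRT8 most at 0.38, whereas 5 fell, KLK3 furthest at -1.62. Only HOXB13 rose with knockdown in LNCaP95, by 0.27, whereas 5 luminal markers fell there, TMPRSS2 furthest at -1.57. The 22Rv1 line had 1 rise, KLK3 at 0.42, against 2 falls, the larger being TMPRSS2 at -0.58. Whether these marker levels bear on the values below was not tested. In bulk RNA, fewer cells of a kind and less RNA per cell cannot be told apart.

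With CTRL sh the members were well expressed, and levels are compared between genes only per exon length, as RPKM, which is CPM divided by the exon length in kilobases. The median over the 44 members was 29.5 RPKM in LNCaP, 24.1 RPKM in LNCaP95 and 26.9 RPKM in 22Rv1 cells, against 12.8, 13.0 and 13.0 RPKM over all 10317 genes tested, and 34 of 44 members lay above the median of all genes in each line. NPM1, a histone and ribosomal protein chaperone, stood highest in all 3 lines at 290.4 ± 6.61, 207 ± 10.7 and 216 ± 9.53 RPKM (SD, n = 3). In LNCaP cells the lowest levels belonged to BOP1 and PPAN, 2 factors of the large subunit, at 4.85 ± 0.0674 and 4.77 ± 0.680 RPKM (SD, n = 3), which overlap within their SD. MYC ranked among the 7 highest members of every line.

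**Figure D1:**
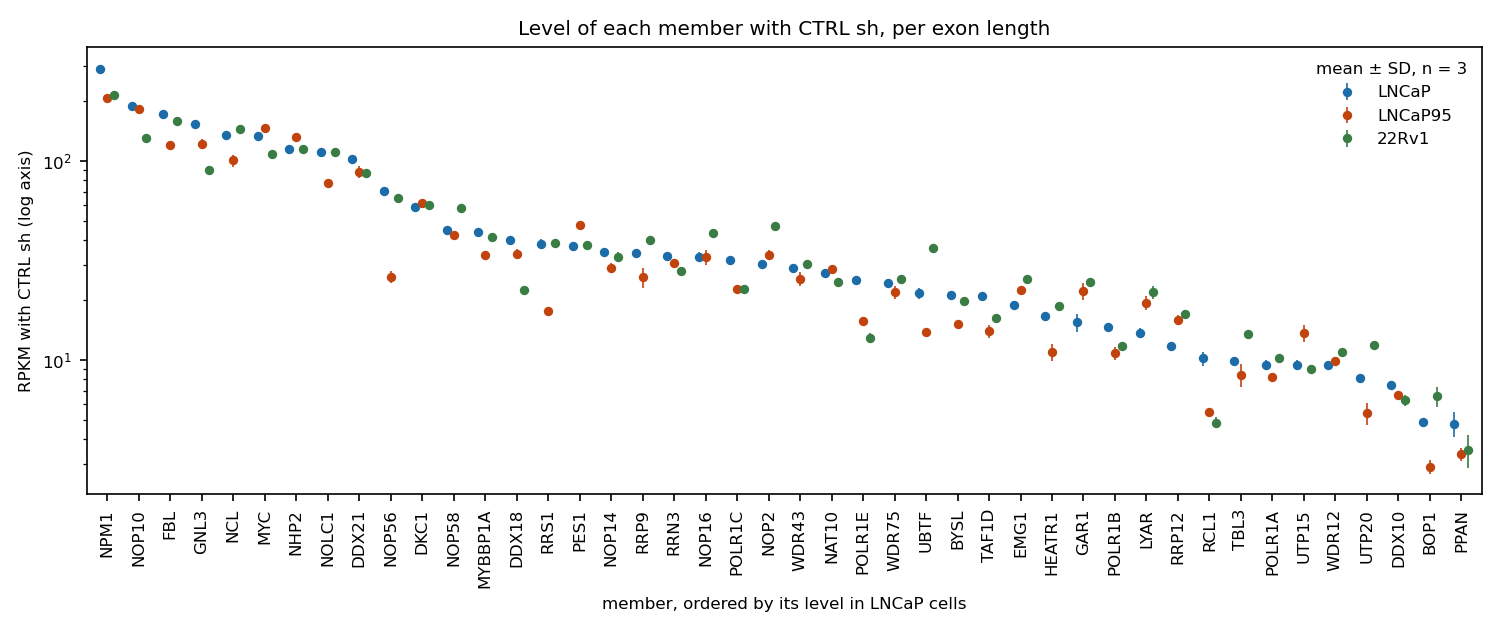
RPKM of each of the 44 members with CTRL sh on a log axis, ordered by the level in LNCaP cells; points are means of 3 libraries per line and bars their SD. NPM1 stands at the top in all lines, and NOP56, RRS1 and UBTF lie lower in LNCaP95 than in the other lines.

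The lines differed in these control levels. In LNCaP95 against LNCaP cells, 8 members were higher and 28 lower (background 38.8% of all genes tested higher and 37.2% lower), the lower ones led by NOP56 at a log2 difference of -1.43 (adjusted p = 1.36e-16), RRS1 at -1.13 and RCL1 at -0.90. In 22Rv1 against LNCaP cells, 13 were higher and 16 lower (background 39.2 and 39.5%), and in 22Rv1 against LNCaP95 cells 24 were higher and 11 lower (background 40.7% in each direction), led by UBTF at 1.41 and NOP56 at 1.32. MYC mRNA was highest in LNCaP95 at 147 ± 0.410 RPKM, then LNCaP at 134 ± 2.48, then 22Rv1 at 109 ± 2.88 (SD, n = 3). Each step in that order passed the test, with log2 differences of 0.13 for LNCaP95 over LNCaP (adjusted p = 0.0212) and -0.30 for 22Rv1 over LNCaP (adjusted p = 4.51e-06).

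After CPSF1 knockdown most of the ribosome factors rose in LNCaP and LNCaP95 cells, while in 22Rv1 cells few were called and the count turned on single libraries. The 6 CPSF1 sh libraries of each line, both hairpins together, were compared with its 3 CTRL sh libraries, and a member was called at an adjusted p below 0.05 over all genes tested. In LNCaP cells 28 members (63.6%) rose and 6 (13.6%) fell, where 31.1% of 11096 genes rose and 31% fell (62.1% in either direction). In LNCaP95 cells 30 (68.2%) rose and 4 (9.09%) fell, where 33.2% of 11143 genes rose and 33.7% fell (66.9% in either direction). In 22Rv1 cells 2 (4.55%) rose and 1 (2.27%) fell, where 12.7% of 11728 genes rose and 14.3% fell. There 10 members had an unadjusted p below 0.05, a threshold for which the share of all genes was not counted. Without CPSF1 sh1 replicate 3 the 22Rv1 counts were 8 higher and 4 lower, without CTRL sh replicate 1 or 2 they were 1 and 1, without CPSF1 sh2 replicate 3 they were 2 and 2, and with CPSF1 sh2 alone 15 and 2. Set against counting error, the 22Rv1 CPSF1 sh1 replicates differed by a chi-square per degree of freedom of up to 6.98. The CTRL sh and CPSF1 sh2 replicates of that line reached at most 1.83 and 1.78. What set the CPSF1 sh1 replicates apart was not tested. The median log2 fold change of the members was 0.25, 0.32 and 0.033 in the 3 lines, against -0.00036, 0.0013 and -0.0024 over all genes tested.

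**Figure D2:**
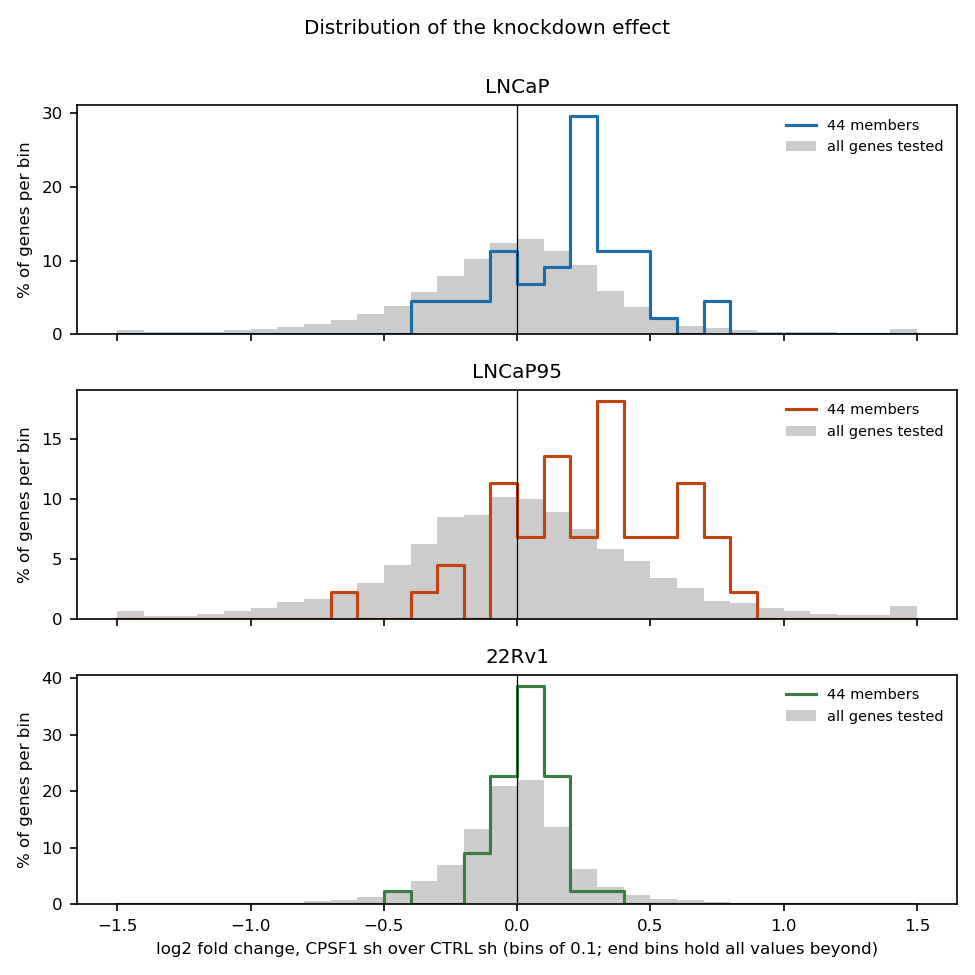
Share of genes per bin of log2 fold change (CPSF1 sh over CTRL sh, bins of 0.1) for all genes tested (grey bars) and the 44 members (coloured line) in each line. The members lie to the right of all genes in LNCaP and LNCaP95 cells, with medians of 0.25 and 0.32, and around 0 in 22Rv1 cells.

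The separation of the libraries showed the same split. All 6 CPSF1 sh libraries lay above all 3 CTRL sh libraries for 27 members in LNCaP (background 27.9% of genes), 27 in LNCaP95 (29.8%) and 2 in 22Rv1 cells (13%), and below them for 6 (27.7%), 4 (30.3%) and 3 (15.2%). The 44 members together took 0.676 to 0.687% of all counts in the 3 LNCaP libraries with CTRL sh, 0.729 to 0.736% with CPSF1 sh1 and 0.758 to 0.770% with CPSF1 sh2. In LNCaP95 cells their share was 0.520 to 0.559% with CTRL sh, 0.664 to 0.682% with CPSF1 sh1 and 0.718 to 0.734% with CPSF1 sh2, so that neither line had overlapping groups. In 22Rv1 cells it was 0.638 to 0.648% with CTRL sh, 0.638 to 0.641% with CPSF1 sh1 and 0.674 to 0.680% with CPSF1 sh2, and CPSF1 sh1 overlapped the control.

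Between lines, 24 members rose in both LNCaP and LNCaP95 cells, where 16.9% of 10686 genes tested in both did. Of these 24, RRP9 also rose in 22Rv1 cells and the other 23 were not called there with both hairpins together. GNL3 and TAF1D fell in both, as did 17% of the genes. NAT10, an acetyltransferase of ribosomal RNA, NHP2 and POLR1C passed the test in none of the lines with both hairpins together. In the fits with 3 groups, NAT10 fell with CPSF1 sh1 in LNCaP95 cells, at -0.095 (adjusted p = 0.0419). With CPSF1 sh2, POLR1C rose there at 0.14 (adjusted p = 0.0474), and NHP2 fell in 22Rv1 cells at -0.15 (adjusted p = 0.0410). Over the 44 members, Pearson's r of the log2 fold changes was 0.60 for LNCaP95 and LNCaP (0.44 over 10686 genes), 0.35 for 22Rv1 and LNCaP (0.34 over 10579 genes) and 0.34 for 22Rv1 and LNCaP95 (0.30 over 10514 genes). These are descriptions across genes, which are not independent, and each line has its own control libraries.

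**Figure D3:**
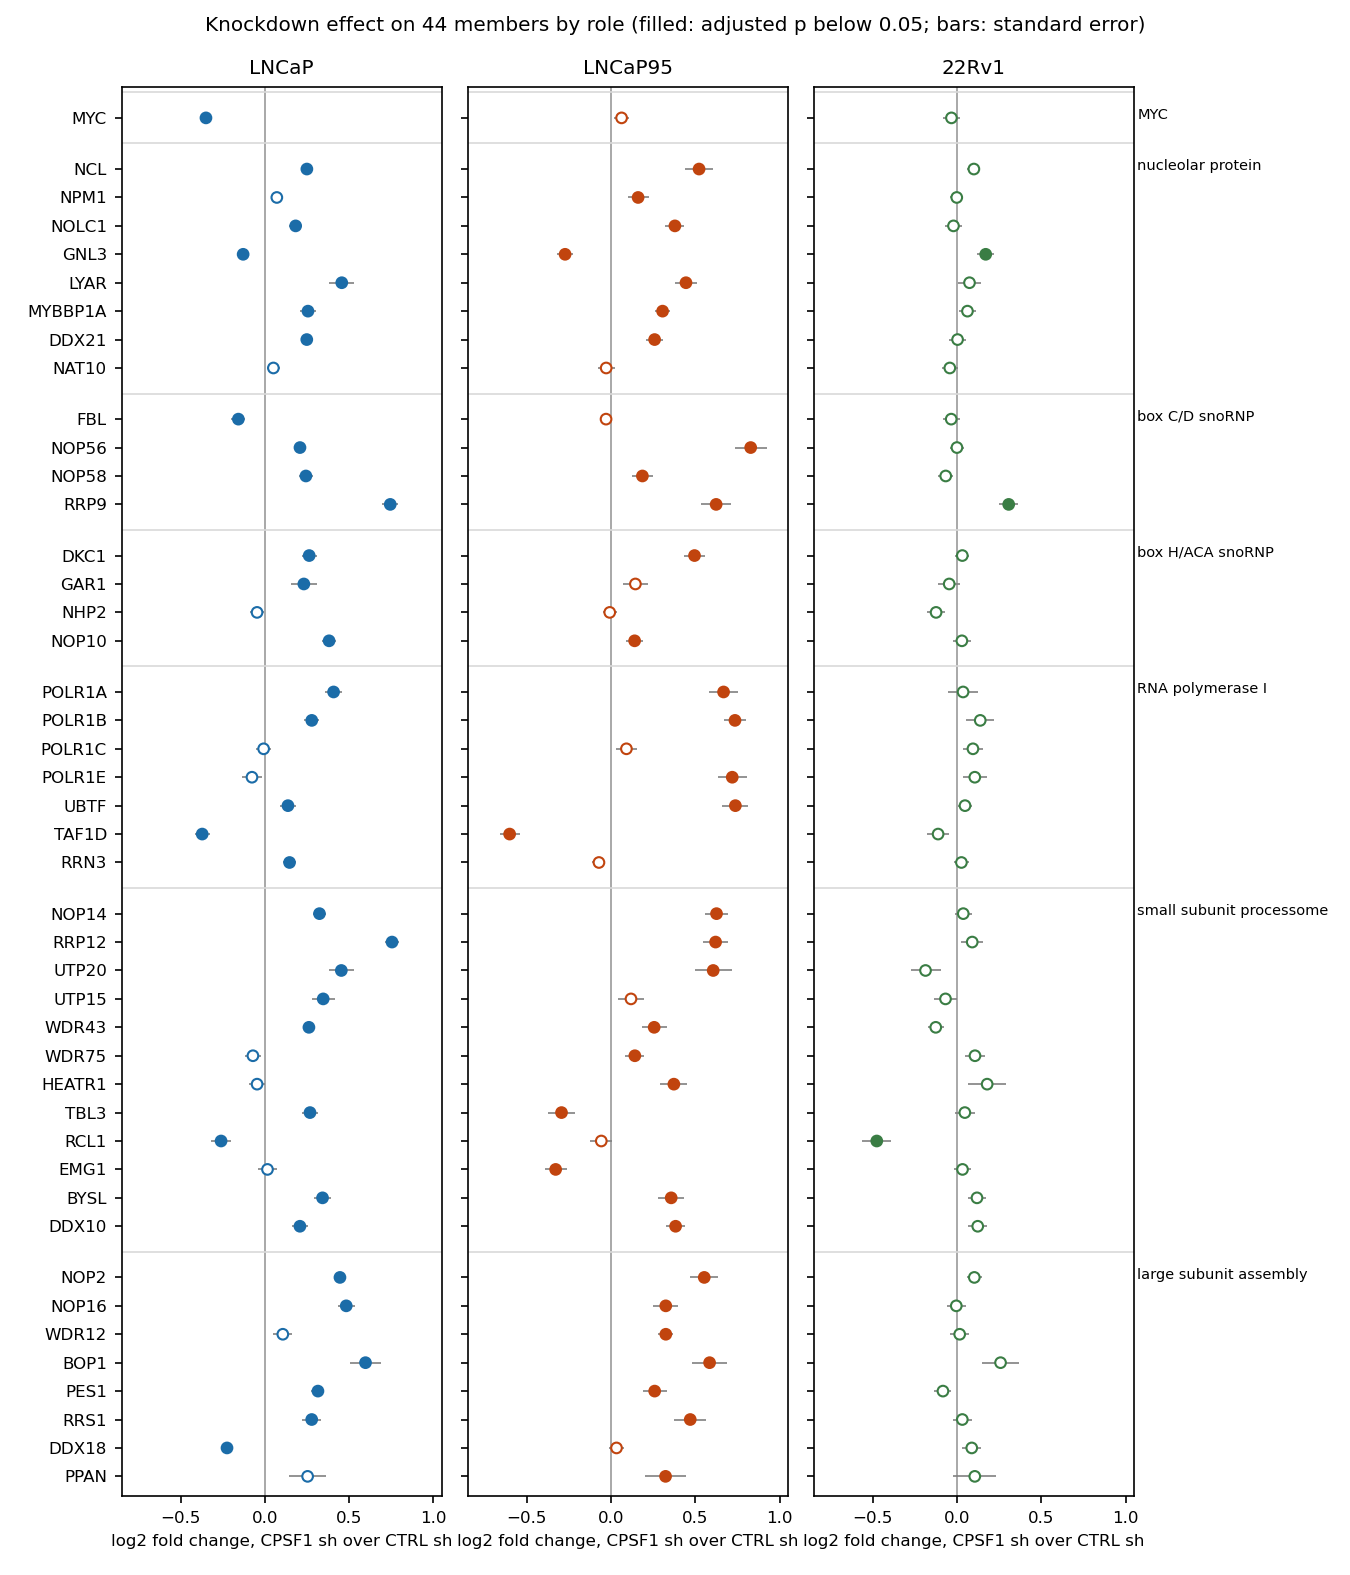
Log2 fold change (CPSF1 sh over CTRL sh) of each member by line, grouped by role. Bars are standard errors derived from the test statistic, and filled points passed the test at an adjusted p below 0.05. Most points are filled and to the right of 0 in LNCaP and LNCaP95 cells, TAF1D is to the left in both, and in 22Rv1 cells only RRP9, GNL3 and RCL1 are filled.

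MYC mRNA fell in LNCaP cells only, while the other lines gave values near 0. In LNCaP cells MYC stood at 399, 389.6 and 385 CPM with CTRL sh, 298, 305 and 296 with CPSF1 sh1 and 322, 312 and 309 with CPSF1 sh2. Every library with a CPSF1 hairpin lay below every control library. The log2 fold change was -0.35 (SE 0.034, adjusted p = 5.33e-07), where SE is the standard error derived from the fold change and the test statistic. In LNCaP95 cells MYC stood at 434, 433 and 436 CPM with CTRL sh, 480.2, 444 and 474 with CPSF1 sh1 and 436, 451 and 439 with CPSF1 sh2. The highest library there carried CPSF1 sh1, and the control and knockdown groups overlapped, with a log2 fold change of 0.063 (SE 0.043, adjusted p = 0.211). In 22Rv1 cells the 3 CTRL sh libraries gave 326, 321 and 310.3 CPM, those with CPSF1 sh1 298, 297 and 294 and those with CPSF1 sh2 328, 341 and 313. The libraries with CPSF1 sh1 were below the controls and those with CPSF1 sh2 overlapped them, for a log2 fold change of -0.033 (SE 0.05, adjusted p = 0.668). The knockdown effect on MYC differed from that in LNCaP by 0.43 in LNCaP95 (adjusted p = 1.06e-06) and by 0.33 in 22Rv1 cells (adjusted p = 1.02e-04).

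Around MYC, 12 of 13 genes of its network passed the filter in each line, among them its dimer partner MAX and the repressors that bind MAX. Of the 12, 4 rose and 6 fell in LNCaP, 7 fell in LNCaP95, and 1 rose and 3 fell in 22Rv1 cells, where the shares of all genes were 31.1 and 31% (LNCaP), 33.2 and 33.7% (LNCaP95) and 12.7 and 14.3% (22Rv1). The largest rise was MXD1 in LNCaP, at 1.01, and MXD4 in 22Rv1 cells, at 0.37, and the largest fall was MLXIPL in LNCaP and 22Rv1 cells, at -1.30 and -0.57, and MXI1 in LNCaP95 cells. MXI1, MXD1 and MAX are given across lines as a choice made after their values were seen. MXI1, a repressor that competes with MYC for MAX, fell in all 3 lines, with log2 fold changes of -1.15, -1.052 and -0.27 in LNCaP, LNCaP95 and 22Rv1 cells. MXD1, another such repressor, rose in LNCaP cells from 9.98 ± 1.26 CPM (SD, n = 3) by 1.01 and fell in LNCaP95 cells from 36.5 ± 2.24 CPM by 0.88. MAX itself passed the test in 22Rv1 cells alone, at a log2 fold change of -0.27 (adjusted p = 0.00559).

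Most of the nucleolar proteins rose in LNCaP and LNCaP95 cells, while GNL3 fell. Of the 8, 5 rose and 1 fell in LNCaP cells, 6 rose and 1 fell in LNCaP95 cells and GNL3 rose in 22Rv1 cells, with median log2 fold changes of 0.22, 0.28 and 0.033. NCL, the abundant RNA-binding protein nucleolin, went from 627 ± 20.6 CPM (SD, n = 3) to 745 ± 22.7 CPM (SD, n = 6) in LNCaP and from 472 ± 33.8 to 678 ± 68.9 CPM in LNCaP95 cells. Its log2 fold changes were 0.25 and 0.52. NOLC1, the snoRNP chaperone Nopp140, rose by 0.18 and 0.38, LYAR by 0.46 and 0.45, MYBBP1A by 0.26 and 0.31, and the helicase DDX21 by 0.25 and 0.26. NPM1 passed the test in LNCaP95 cells only, at 0.16 (SE 0.062, adjusted p = 0.0349), and its groups overlapped.

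GNL3, the nucleolar GTPase nucleostemin, was the only member that fell in LNCaP and LNCaP95 cells and rose in 22Rv1 cells. In LNCaP cells it stood at 396, 376 and 361 CPM with CTRL sh, 329, 342 and 339.8 with CPSF1 sh1 and 350.0, 357 and 354 with CPSF1 sh2. All 6 CPSF1 sh libraries were below the controls, though the nearest of them by less than the spread of the controls, and the log2 fold change was -0.13 (SE 0.037, adjusted p = 0.00734). Without CTRL sh replicate 1, the highest control library, it was -0.094 and no longer passed. In LNCaP95 cells the values were 286, 321 and 308 CPM with CTRL sh, 246, 264 and 255 with CPSF1 sh1 and 258, 243 and 249.9 with CPSF1 sh2. The groups did not overlap and the log2 fold change was -0.27 (SE 0.046, adjusted p = 1.93e-04). In 22Rv1 cells GNL3 stood at 211, 222 and 229 CPM with CTRL sh, 240.1, 228 and 247 with CPSF1 sh1 and 260.1, 253 and 264 with CPSF1 sh2. Here the CPSF1 sh2 libraries were above all controls and 1 CPSF1 sh1 library lay among them, with a log2 fold change of 0.17 (SE 0.05, adjusted p = 0.0219). That call was lost without CTRL sh replicate 1 or without CTRL sh replicate 2. GNL3 hosts 3 annotated snoRNAs in its introns, and the counts here are those on its exons.

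Among the box C/D proteins, the core proteins NOP56 and NOP58 and the U3-specific protein RRP9 rose in both LNCaP and LNCaP95 cells. FBL, fibrillarin, the methyltransferase of these particles, fell in LNCaP cells from 236 ± 2.90 CPM (SD, n = 3) to 212 ± 10.6 CPM (SD, n = 6), a log2 fold change of -0.16, and gave -0.029 (adjusted p = 0.518) in LNCaP95 cells. NOP58 rose by 0.24 and 0.19.

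NOP56 showed the largest rise of all members in LNCaP95 cells. There it stood at 113, 127 and 130.3 CPM with CTRL sh, 196, 186 and 206 with CPSF1 sh1 and 239, 239 and 249 with CPSF1 sh2. The 3 groups were fully separate, with CPSF1 sh2 highest, and the log2 fold change was 0.83 (SE 0.095, adjusted p = 9.08e-06). In LNCaP cells, where its control level was higher, the libraries gave 327, 319 and 338 CPM with CTRL sh, 377, 361 and 378 with CPSF1 sh1 and 395, 378 and 383 with CPSF1 sh2. They did not overlap either, at a log2 fold change of 0.21 (SE 0.035, adjusted p = 1.05e-04). In 22Rv1 cells the range was 292 to 314 CPM with CTRL sh and 289 to 316 CPM with CPSF1 sh, and the control range lay inside the other. The effect in LNCaP95 exceeded that in LNCaP by 0.64 (adjusted p = 1.06e-06).

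RRP9 was the only member called higher in all 3 lines. In LNCaP cells it stood at 53.3, 53.8 and 51.7 CPM with CTRL sh, 85.6, 89.0 and 83.0 with CPSF1 sh1 and 95.1, 88.5 and 90.2 with CPSF1 sh2. In LNCaP95 cells the values were 38.2, 37.7 and 46.0 CPM with CTRL sh, 60.7, 54.0 and 59.0 with CPSF1 sh1 and 65.6, 67.4 and 68.9 with CPSF1 sh2. In 22Rv1 cells they were 63.3, 60.5 and 62.3 CPM with CTRL sh, 71.3, 74.4 and 80.2 with CPSF1 sh1 and 81.2, 73.5 and 79.9 with CPSF1 sh2. Control and knockdown libraries did not overlap in any line. In that order of lines, the log2 fold changes were 0.74 (SE 0.048, adjusted p = 9.92e-09), 0.62 (SE 0.089, adjusted p = 5.20e-05) and 0.31 (SE 0.055, adjusted p = 0.00119). The effect in 22Rv1 was smaller than in LNCaP by a log2 difference of -0.42 (adjusted p = 6.48e-04) and smaller than in LNCaP95 by -0.32 (adjusted p = 0.00546). Its E-box, shown above, starts 5 bases before the annotated start.

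On GRCh37 the genes described library by library include RRP9 at chr3:51967446-51975957, NOP56 at chr20:2632791-2639039, RRP12 at chr10:99116115-99161127, UBTF at chr17:42282401-42298994, POLR1B at chr2:113299492-113334635, TAF1D at chr11:93463114-93517557, RCL1 at chr9:4792869-4885917, EMG1 at chr12:7072408-7105520 and GNL3 at chr3:52715172-52728508. The counts cover all their annotated exons.

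**Figure D4:**
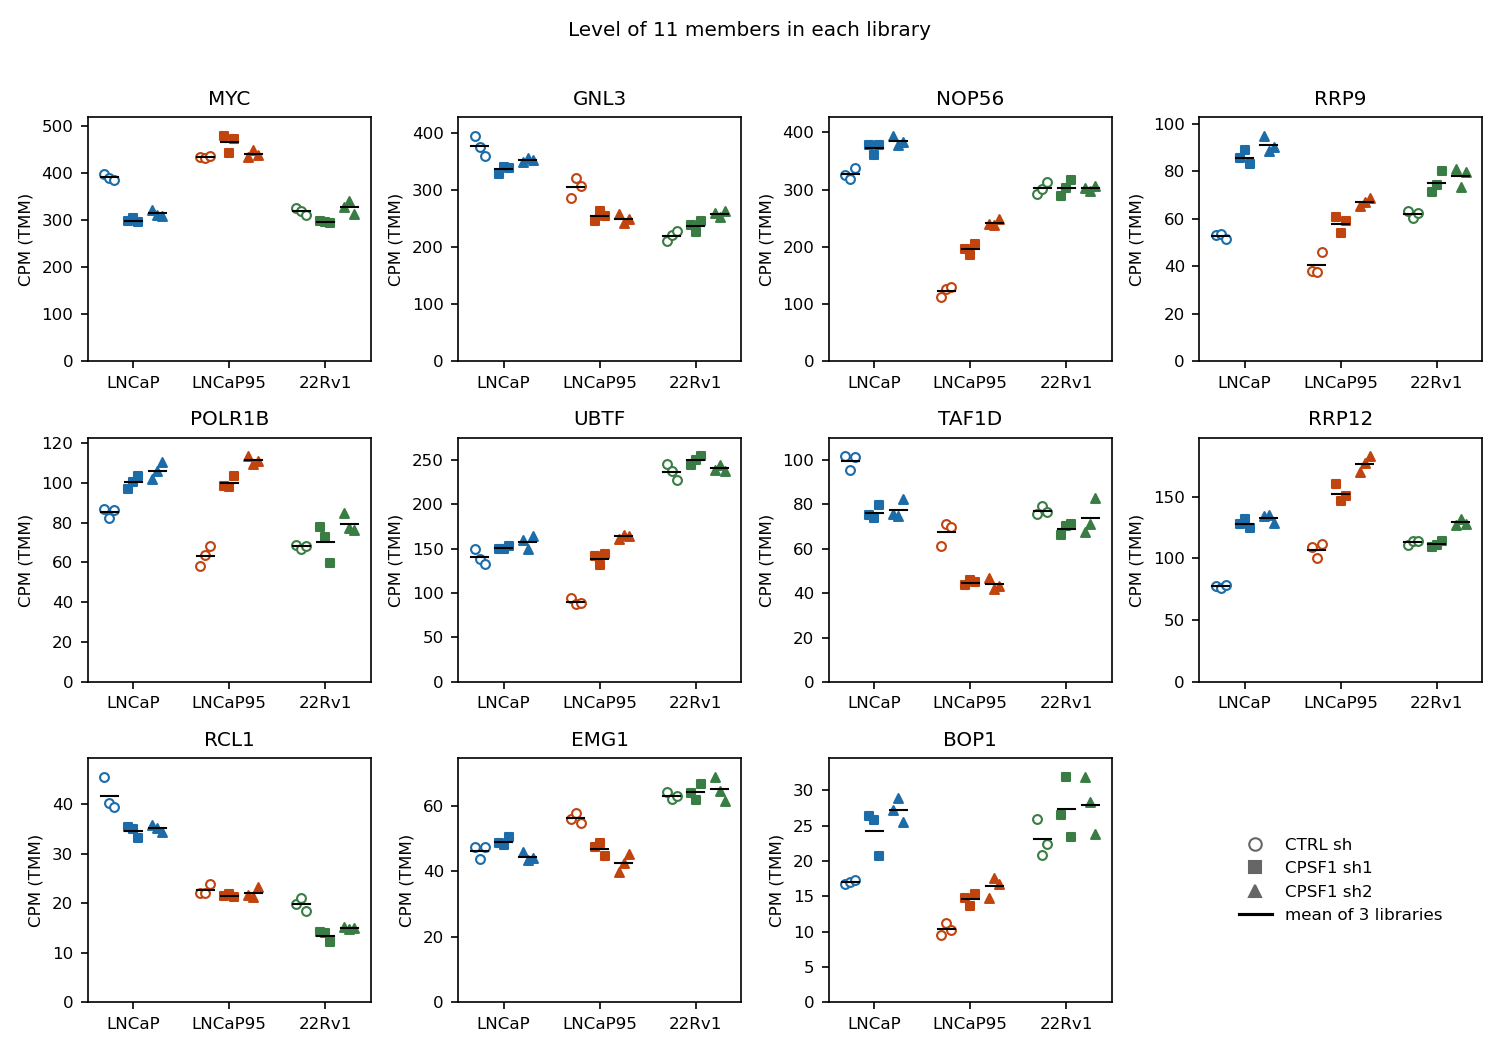
CPM (normalized by TMM) of 11 members in each of the 27 libraries, with open circles for CTRL sh, squares for CPSF1 sh1, triangles for CPSF1 sh2 and a line at each mean of 3. RRP9 lies higher with both hairpins in every line, MYC is lower in LNCaP cells only, and NOP56, UBTF and POLR1B rise furthest in LNCaP95 cells.

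Of the 4 box H/ACA proteins, which form the pseudouridylation particle, 3 rose in LNCaP and 2 in LNCaP95 cells, where 31.1 and 33.2% of all genes rose. In 22Rv1 cells NHP2 alone had an unadjusted p below 0.05, at a log2 fold change of -0.12. DKC1, the pseudouridine synthase dyskerin, rose by 0.26 in LNCaP and 0.50 in LNCaP95 cells. NOP10 rose by 0.38 and 0.14, and its effect in LNCaP95 was smaller by a log2 difference of -0.22 (adjusted p = 0.00468). GAR1 rose in LNCaP cells by 0.23 and gave 0.15 (adjusted p = 0.0992) in LNCaP95 cells.

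Of the 7 RNA polymerase I proteins, 4 rose and 1 fell in LNCaP (median log2 fold change 0.14), 4 rose and 1 fell in LNCaP95 (0.67), and their median in 22Rv1 cells, where no call was made, was 0.048. Beside these counts, 31.1% of all genes rose and 31% fell in LNCaP, and 33.2 and 33.7% in LNCaP95 cells. POLR1A, the largest catalytic subunit, rose by 0.41 and 0.67. POLR1E, a subunit that helps the enzyme engage its promoter, rose from 38.9 ± 0.779 CPM (SD, n = 3) to 64.3 ± 6.91 CPM (SD, n = 6) in LNCaP95 cells and gave a log2 fold change of -0.076 (adjusted p = 0.276) in LNCaP cells. The difference of 0.81 was the largest among the members (adjusted p = 2.05e-07). RRN3, the initiation factor that links the polymerase to its promoter, rose by 0.15 in LNCaP cells and gave -0.071 (adjusted p = 0.121) in LNCaP95 cells, where all 6 CPSF1 sh libraries were nevertheless below the controls.

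UBTF, the upstream binding factor of ribosomal DNA, stood in LNCaP95 cells at 94.0, 88.1 and 89.2 CPM with CTRL sh, 141, 131 and 144 with CPSF1 sh1 and 161, 166 and 164 with CPSF1 sh2. The 3 groups were separate and the log2 fold change was 0.74 (SE 0.076, adjusted p = 4.28e-06). In LNCaP cells the values were 149.7, 138 and 132 CPM with CTRL sh, 149, 149 and 152 with CPSF1 sh1 and 159, 149 and 164 with CPSF1 sh2. The highest control library lay within the knockdown range, and the log2 fold change of 0.14 (SE 0.046, adjusted p = 0.0173) lost its call without the filter on low counts, with CPSF1 sh1 alone, and without CTRL sh replicate 2 or replicate 3. In 22Rv1 cells UBTF ranged from 228 to 245 CPM with CTRL sh and from 237 to 254 CPM with CPSF1 sh, which overlap.

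POLR1B, the other catalytic subunit, stood in LNCaP cells at 87.01, 82.2 and 86.4 CPM with CTRL sh, 96.8, 100.3 and 104 with CPSF1 sh1 and 102, 106 and 111 with CPSF1 sh2. In LNCaP95 cells it stood at 58.4, 63.9 and 68.1 CPM with CTRL sh, 98.3, 97.9 and 104 with CPSF1 sh1 and 113, 109.5 and 111 with CPSF1 sh2. Neither line had overlapping groups, and the log2 fold changes were 0.28 (SE 0.045, adjusted p = 8.92e-05) and 0.74 (SE 0.066, adjusted p = 1.46e-06). In 22Rv1 cells it ranged from 66.7 to 69.0 CPM with CTRL sh and from 59.6 to 85.1 CPM with CPSF1 sh, where 1 CPSF1 sh1 library lay below the controls. On GRCh37, POLR1B lies 176 bases downstream of the 3′ end of TTL on the same strand, and TTL had log2 fold changes of 0.091 (adjusted p = 0.119), 1.12 (adjusted p = 1.31e-07) and 0.18 (adjusted p = 0.0382) in LNCaP, LNCaP95 and 22Rv1 cells. Whether reads from TTL reach the POLR1B exons was not tested.

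TAF1D, a subunit of the SL1 factor that recruits RNA polymerase I, fell in LNCaP and LNCaP95 cells. In LNCaP cells it stood at 102, 95.6 and 101 CPM with CTRL sh, 75.1, 74.0 and 79.5 with CPSF1 sh1 and 75.8, 74.8 and 82.3 with CPSF1 sh2. In LNCaP95 cells it stood at 61.3, 71.0 and 69.8 CPM with CTRL sh, 43.7, 45.9 and 44.8 with CPSF1 sh1 and 46.7, 42.0 and 43.2 with CPSF1 sh2. Every knockdown library was below every control in both lines, with log2 fold changes of -0.37 (SE 0.044, adjusted p = 4.21e-06) and -0.60 (SE 0.059, adjusted p = 2.81e-06). In 22Rv1 cells the values were 75.9, 79.1 and 76.8 CPM with CTRL sh, 66.1, 70.2 and 71.0 with CPSF1 sh1 and 67.5, 71.1 and 83.1 with CPSF1 sh2. Of the 6 knockdown libraries there, 5 were below the controls and CPSF1 sh2 replicate 3 was above them, for a log2 fold change of -0.11 (SE 0.065, adjusted p = 0.222). Without that library it was -0.16 and passed the test. TAF1D also hosts 8 annotated snoRNAs, the most of any member.

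The small subunit processome had 8 of 12 members higher and RCL1 lower in LNCaP cells, 8 higher against 2 lower in LNCaP95 cells and RCL1 lower in 22Rv1 cells, with median log2 fold changes of 0.26, 0.31 and 0.042. Background shares, higher and lower, were 31.1 and 31% (LNCaP), 33.2 and 33.7% (LNCaP95) and 12.7 and 14.3% (22Rv1). NOP14 rose by 0.32 and 0.63, UTP20 by 0.45 and 0.61, WDR43 by 0.26 and 0.26, BYSL by 0.34 and 0.36, and the helicase DDX10 by 0.21 and 0.38. UTP15, which serves processome assembly and polymerase I transcription, rose in LNCaP cells by 0.35, and WDR75 and HEATR1, of the same class, in LNCaP95 cells by 0.14 and 0.37. In 22Rv1 cells UTP20 and WDR43 were below the controls in all 6 knockdown libraries without passing the test, at -0.19 (adjusted p = 0.136) and -0.13 (adjusted p = 0.0657), and BYSL was above them at 0.12 (adjusted p = 0.108).

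RRP12, which acts in maturation and export of the small subunit precursor, showed the largest rise of all members in LNCaP cells. It stood there at 77.6, 76.0 and 78.8 CPM with CTRL sh, 128, 132 and 125 with CPSF1 sh1 and 134, 135 and 129 with CPSF1 sh2. In LNCaP95 cells it stood at 109, 100.1 and 112 CPM with CTRL sh, 161, 147 and 151 with CPSF1 sh1 and 169.7, 178 and 183 with CPSF1 sh2. All knockdown libraries exceeded all controls in both lines, at log2 fold changes of 0.75 (SE 0.04, adjusted p = 1.31e-09) and 0.62 (SE 0.074, adjusted p = 1.23e-05). In 22Rv1 cells the values were 111, 114 and 114 CPM with CTRL sh, 109, 111 and 114 with CPSF1 sh1 and 127, 132 and 128 with CPSF1 sh2. Only the CPSF1 sh2 libraries were above the controls, and the pooled log2 fold change was 0.091 (SE 0.064, adjusted p = 0.312).

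RCL1, a processome protein related to RNA cyclases, fell in LNCaP and 22Rv1 cells. In LNCaP cells it stood at 45.5, 40.1 and 39.4 CPM with CTRL sh, 35.4, 34.99 and 33.1 with CPSF1 sh1 and 35.8, 35.1 and 34.3 with CPSF1 sh2. In 22Rv1 cells it stood at 19.8, 21.0 and 18.5 CPM with CTRL sh, 14.1, 14.0 and 12.3 with CPSF1 sh1 and 15.2, 14.8 and 15.0 with CPSF1 sh2. No knockdown library reached the controls in either line, and the log2 fold changes were -0.26 (SE 0.058, adjusted p = 0.00121) and -0.48 (SE 0.085, adjusted p = 0.00116). In LNCaP95 cells it ranged from 22.1 to 23.8 CPM with CTRL sh and from 21.2 to 23.3 CPM with CPSF1 sh, which overlap. The effect in 22Rv1 differed from that in LNCaP95 by -0.42 (adjusted p = 4.38e-04).

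EMG1, a methyltransferase that modifies a pseudouridine of the small subunit RNA, fell in LNCaP95 cells. There it stood at 56.1, 57.9 and 54.7 CPM with CTRL sh, 47.6, 48.6 and 44.6 with CPSF1 sh1 and 39.9, 42.5 and 45.3 with CPSF1 sh2. The groups did not overlap, and the log2 fold change was -0.33 (SE 0.064, adjusted p = 6.34e-04). In LNCaP and 22Rv1 cells EMG1 ranged from 43.7 to 47.4 and 62.0 to 64.3 CPM with CTRL sh and from 43.5 to 50.6 and 61.4 to 69.0 CPM with CPSF1 sh, overlapping in both. EMG1 shares 9.08% of its exon bases with C1S on the same strand. TBL3 was the only member called in opposite directions in LNCaP and LNCaP95 cells, at 0.27 (SE 0.045, adjusted p = 1.16e-04) and -0.29 (SE 0.078, adjusted p = 0.00508). Its groups overlapped in LNCaP95 cells, the difference between the lines was -0.54 (adjusted p = 1.71e-05), and 18.9% of its exon bases are shared with the overlapping gene AC005606.1.

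Of the 8 large subunit factors, 5 rose and 1 fell in LNCaP, and 7 rose in LNCaP95 cells, and the medians of their log2 fold changes were 0.30, 0.33 and, in 22Rv1 cells, 0.060. Background shares, higher and lower, were 31.1 and 31% in LNCaP and 33.2 and 33.7% in LNCaP95 cells. NOP2, a cytosine methyltransferase of the large subunit RNA, went from 106 ± 0.707 CPM (SD, n = 3) to 144 ± 3.53 CPM (SD, n = 6) in LNCaP and from 119 ± 7.10 to 175 ± 18.5 CPM in LNCaP95 cells. Its log2 fold changes were 0.45 and 0.55. NOP16 rose by 0.48 and 0.33 and RRS1 by 0.28 and 0.47. RRS1 shares 11.4% of its exon bases with ADHFE1 on the same strand. DDX18, a helicase, fell in LNCaP cells, at a log2 fold change of -0.22, and gave 0.033 (adjusted p = 0.527) in LNCaP95 cells. PPAN rose in LNCaP95 cells at 0.32 (SE 0.12, adjusted p = 0.0322), but 81.0% of its exon bases are shared with P2RY11 and the PPAN-P2RY11 readthrough gene, so its own counts are uncertain.

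BOP1, PES1 and WDR12 form the complex that processes the large subunit RNA precursors. BOP1 stood in LNCaP cells at 16.8, 17.1 and 17.3 CPM with CTRL sh, 26.4, 25.7 and 20.6 with CPSF1 sh1 and 27.2, 28.9 and 25.6 with CPSF1 sh2. CPSF1 sh1 replicate 3 was well below the other knockdown libraries but still above the controls. In LNCaP95 cells the values were 9.55, 11.2 and 10.2 CPM with CTRL sh, 14.7, 13.7 and 15.4 with CPSF1 sh1 and 14.8, 17.6 and 16.8 with CPSF1 sh2. Control and knockdown libraries did not overlap in either line, and the log2 fold changes were 0.60 (SE 0.093, adjusted p = 5.85e-05) and 0.59 (SE 0.10, adjusted p = 2.82e-04). In 22Rv1 cells BOP1 ranged from 20.8 to 25.9 CPM with CTRL sh and from 23.4 to 31.9 CPM with CPSF1 sh, which overlap, at 0.26 (SE 0.11, adjusted p = 0.0993). PES1 rose by 0.31 and 0.26, and WDR12 gave 0.11 (adjusted p = 0.113) in LNCaP and rose by 0.33 in LNCaP95 cells.

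How far the response to knockdown depended on the line was tested as an interaction over all 27 libraries. In LNCaP95 against LNCaP cells, 16 members had a higher and 5 a lower log2 fold change (background 26.7 and 24.1% of 10317 genes). In 22Rv1 against LNCaP cells, 5 were higher and 19 lower (background 20.4 and 20%), and in 22Rv1 against LNCaP95 cells 4 were higher and 26 lower (background 26.6 and 27.1%). The 4 members with the largest difference in favour of LNCaP95 were POLR1E, NOP56, UBTF and POLR1B. All 4 had a lower control level in LNCaP95 than in LNCaP cells (log2 differences -0.69, -1.43, -0.65 and -0.45), as did 28 of the 44 members. Opposite signs were not general. MYC and TBL3 differed by 0.43 and -0.54 in the effect and, with the same signs, by 0.13 and -0.23 in the control level. The knockdown effect and the control level use the same CTRL sh libraries, so the opposite signs are not independent. In 22Rv1 against LNCaP cells the lower values were led by RRP12 at -0.65 and UTP20 at -0.62, and the higher ones by MYC at 0.33 and DDX18 at 0.33.

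Each hairpin was also compared on its own with the 3 control libraries of its line, which both comparisons share. In LNCaP cells 27 members rose and 8 fell with CPSF1 sh1 (background 31.2 and 31.3%), and 30 rose and 6 fell with CPSF1 sh2 (32.1 and 32.5%). In LNCaP95 cells 27 rose and 5 fell with CPSF1 sh1 (33.1 and 33.3%), and 32 rose and 4 fell with CPSF1 sh2 (36.5 and 36.9%). In 22Rv1 cells 1 rose and 4 fell with CPSF1 sh1 (8.79 and 11.1%), and 9 rose and 2 fell with CPSF1 sh2 (19.1 and 20.9%).

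**Figure D5:**
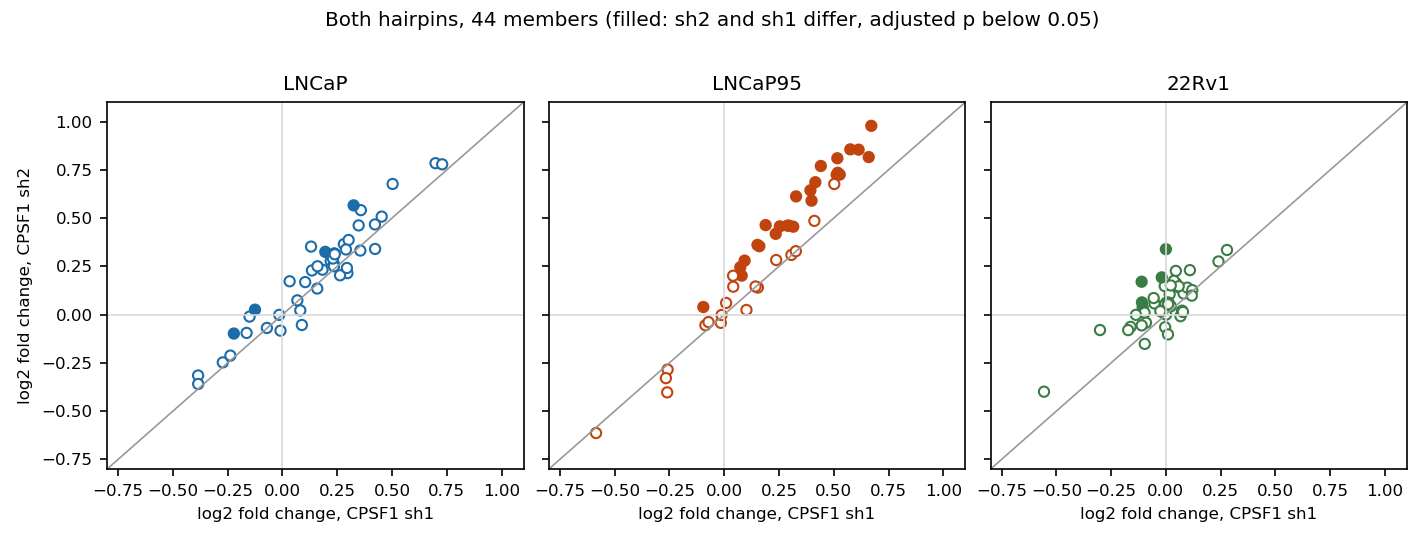
Log2 fold change of the 44 members with CPSF1 sh2 (vertical) against CPSF1 sh1 (horizontal), each over the same CTRL sh libraries, with the line of equal values; filled points differed between the hairpins at an adjusted p below 0.05. In LNCaP95 cells 25 members are filled, each above the line, against 4 in LNCaP and 5 in 22Rv1 cells.

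Tested against each other, CPSF1 sh2 libraries had higher levels than CPSF1 sh1 libraries for all 25 members called in LNCaP95 cells (background 16.5 and 17.7%). Over all 44 members, called or not, the median log2 difference there was 0.16, against -0.0044 over all genes. Without CPSF1 sh2 replicate 3 the 25 became 16. NOP56 differed by 0.31 (adjusted p = 8.22e-05), POLR1A by 0.29 (adjusted p = 5.19e-05), UTP20 by 0.33 (adjusted p = 7.55e-04) and UBTF by 0.24 (adjusted p = 3.43e-04). In LNCaP cells FBL, DKC1, UTP20 and HEATR1 were the members called, each higher with CPSF1 sh2 (6.53 and 8.24%), and in 22Rv1 cells MYC, NOLC1, POLR1A, RRP12 and HEATR1 were, again each higher (5.47 and 5.85%). At an unadjusted p below 0.05 the members numbered 14 (LNCaP), 27 (LNCaP95) and 15 (22Rv1), either direction counted. The share of all genes at that unadjusted threshold was not counted, so whether the members exceed it is not known. CPSF1 mRNA itself did not pass the test between the hairpins, with log2 differences of -0.14 (SE 0.053, adjusted p = 0.0773) in LNCaP, 0.00041 (0.084, adjusted p = 0.998) in LNCaP95 and 0.067 (0.069, adjusted p = 0.578) in 22Rv1 cells.

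A further list of 113 ribosome biogenesis factors outside the members, 112 of them tested in each line, was counted in the same way. This list too was chosen with earlier results of these data known, so it is a description and not an independent check. In LNCaP cells 76 (67.9%) rose and 7 (6.25%) fell, in LNCaP95 cells 69 (61.6%) rose and 8 (7.14%) fell, and in 22Rv1 cells 13 (11.6%) rose and 5 (4.46%) fell, beside the shares of all genes given above. The median log2 fold changes were 0.20, 0.30 and 0.055. The largest rises were DDX49 at 0.82 in LNCaP, RRP15 at 0.95 in LNCaP95 and MAK16 at 0.30 in 22Rv1 cells, and the largest falls PIH1D1 at -0.35, RSL24D1 at -0.49 and NAF1 at -0.45.

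Members with an E-box window were set beside those without, and the difference between these subsets was not tested. Of all genes tested, 31.1% rose and 31% fell in LNCaP and 33.2% rose and 33.7% fell in LNCaP95 cells. In LNCaP cells 12 of 16 with it rose and 3 fell (median log2 fold change 0.29), and 11 of 20 without it rose and 1 fell (0.18). In LNCaP95 cells 11 of 16 with it rose and 1 fell (0.26), and 13 of 20 without it rose and 3 fell (0.32). The 3 members called in 22Rv1 cells, RRP9, GNL3 and RCL1, were all among the 16 with it. A match is a description of these letters and not of MYC binding.

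On GRCh37, 10 members lie within 10000 bases downstream of another protein-coding gene on the same strand. Of these 10, 7 rose in LNCaP cells, and 6 rose and 2 fell in LNCaP95 cells. Their median log2 fold changes were 0.25 and 0.28, against 0.24 and 0.33 for the other 34 members. The shares of all genes tested were 31.1% higher and 31% lower in LNCaP, and 33.2 and 33.7% in LNCaP95 cells. Of the 8 upstream neighbours that were tested, 2 rose and 2 fell in LNCaP, and 4 rose and 2 fell in LNCaP95 cells. In LNCaP95 cells EMG1 and its upstream neighbour PTPN6, 1929 bases away, had log2 fold changes of -0.33 and -0.49, and NOP2 and CHD4, 1392 bases away, of 0.55 and 0.43. DDX21 and DDX50, 9281 bases away, had opposite signs, at 0.26 and -0.33 in LNCaP95 and 0.25 and -0.27 in LNCaP cells. NOP16 and CLTB, 3480 bases away, both rose, at 0.33 and 0.66 in LNCaP95 and 0.48 and 0.55 in LNCaP cells. NOLC1 and PPRC1, 1851 bases away, also both rose, at 0.38 and 0.18 in LNCaP95 and 0.18 and 0.24 in LNCaP cells. PTPN6 fell in LNCaP cells, at -0.21, where EMG1 gave 0.016. In LNCaP cells CHD4 gave 0.037 (adjusted p = 0.308) beside the rise of NOP2.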

How the data were processed

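Paired-end reads were mapped by the authors with HISAT2 2.1.0 against GRCh37, and featureCounts of Subread assigned them, reverse-stranded, to the exons of Ensembl version 87. The submitters' processing notes give Subread 2.0.3. The treatment of duplicate and multi-mapping reads is not given in the sources used here. The deposited values are raw counts per gene for 27 libraries, without normalization, and columns were matched to samples by name. Depth limits precision through counting error, and libraries varied beyond it by a biological coefficient of 4.95% (LNCaP), 7.09% (LNCaP95) and 6.08% (22Rv1). This coefficient takes both hairpins as 1 group, so it includes differences between them as well as between replicates. Replicates differed by more than counting error (chi-square per degree of freedom 1.38 to 6.98, the highest within 22Rv1 CPSF1 sh1), so no library was counted as a duplicate.

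From these counts, each line was fitted in R 4.3.3 with edgeR 4.0.16 (legacy quasi-likelihood test, TMM, genes above 2 CPM in all 9 libraries), with Benjamini-Hochberg adjustment over all genes tested. Hairpins were compared in fits with 3 groups, and lines as interactions in a fit of 27 libraries. RPKM used the deposited exon lengths. The fits were tested on simulated data. Library values are given for MYC, for members called in 1 direction in all lines, and for up to 3 largest rises and falls per line with non-overlapping groups. The members and lists were chosen with earlier results of these data known. Alternatives tried were DESeq2 1.42.0, the newer quasi-likelihood form, RLE factors, library size alone, other filters, a replicate block, hairpins alone or apart, and omission of each library. Neighbouring genes were looked up after the data had been seen.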

Additional observations from a re-analysis of the deposited data

Results flagged for a closer look

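Among 33 groups of 6 knockdown libraries, 1 per named member and line, 2 had a library set apart from the rest, where chance gives about 1 in 20. BOP1 in LNCaP CPSF1 sh1 replicate 3 was at 20.6 CPM, with a gap to the next library of 0.635 of the range. TAF1D in 22Rv1 CPSF1 sh2 replicate 3 was at 83.1 CPM, with a gap of 0.683 of the range.

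By the interaction test, the knockdown effect differed for 21 members in LNCaP95 minus LNCaP, 24 in 22Rv1 minus LNCaP and 30 in 22Rv1 minus LNCaP95. In that order, the shares of all 10317 genes tested were 26.7% higher and 24.1% lower, 20.4 and 20%, and 26.6 and 27.1%. As log2 differences of LNCaP95 minus LNCaP, MYC was at 0.43, NOP56 at 0.64, UBTF at 0.62, POLR1B at 0.48, RCL1 at 0.22, TAF1D at -0.21 and EMG1 at -0.32. For 22Rv1 minus LNCaP, MYC was at 0.33, GNL3 at 0.31, TAF1D at 0.27, RRP9 at -0.42 and RRP12 at -0.65. For 22Rv1 minus LNCaP95, TAF1D was at 0.48, GNL3 at 0.44, EMG1 at 0.35, RRP9 at -0.32, RCL1 at -0.42, RRP12 at -0.53, POLR1B at -0.60, UBTF at -0.69 and NOP56 at -0.83.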

How the results depend on the processing

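For the 11 members given library by library, no called log2 fold change in a line changed sign under the alternatives run, and the other members were followed only as counts. The counts of members higher and lower stayed within 1.5 times in LNCaP and LNCaP95 cells. In 22Rv1 cells 2 higher and 1 lower became 4 and 3 with the hairpins as separate groups, 1 and 2 with CPSF1 sh1 alone, and 15 and 2 with CPSF1 sh2 alone. Leaving out each library in turn gave 25 to 29 higher and 5 to 6 lower (LNCaP), 24 to 30 and 4 to 4 (LNCaP95), and 1 to 8 and 1 to 4 (22Rv1), the 8 and the 4 without CPSF1 sh1 replicate 3. Members called between a hairpin and the control then ranged from 33 to 36 and 33 to 36 (LNCaP), 28 to 32 and 33 to 36 (LNCaP95), and 2 to 10 and 7 to 16 (22Rv1) for CPSF1 sh1 and CPSF1 sh2. In 22Rv1 cells the lows were without CTRL sh replicate 1 (also replicate 2 for CPSF1 sh1, and 3 without CTRL sh replicate 3) and the highs without CPSF1 sh1 replicate 3. Between the hairpins they ranged from 2 (without CPSF1 sh2 replicate 2) to 6 in LNCaP, 16 (without CPSF1 sh2 replicate 3) to 26 in LNCaP95, and 2 (without CPSF1 sh2 replicate 1; 3 without its replicate 3) to 9 (without CPSF1 sh1 replicate 1) in 22Rv1 cells. Differences of the effect ranged from 17 to 22, 19 to 26 and 29 to 32 members, and control levels from 33 to 37, 27 to 29 and 31 to 36. Deviations of same-numbered libraries correlated at r from -0.057 to 0.26 in LNCaP (3 of 9 pairs over 0.1, other pairs at most 0.068), -0.25 to 0.29 in LNCaP95 (3 of 9, others at most 0.24) and -0.12 to 0.21 in 22Rv1 cells (1 of 9, others at most 0.27), and since not every pair exceeded 0.1 the numbers were not taken to pair libraries. With a replicate block, 7 members instead of 4 differed between hairpins in LNCaP cells, and the knockdown counts, higher and lower, were 29 and 6 (LNCaP), 28 and 4 (LNCaP95) and 2 and 1 (22Rv1). With library size alone, MYC in LNCaP95 cells passed the test at 0.15 (adjusted p = 0.0102), beside a median over all genes of 0.088, and with CPSF1 sh1 alone at 0.10 (adjusted p = 0.0482). GNL3 in 22Rv1 lost its call with CPSF1 sh1 alone, while RRP12, POLR1B and BOP1 gained one with CPSF1 sh2 alone, and POLR1B and BOP1 without CPSF1 sh1 replicate 3. The cause of these changes was not tested. At 8515624 counts or more, depth limits most the members with the fewest counts, such as BOP1 and PPAN.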
